A study of Mus musculus with 16 samples.

Results

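The ribosomal protein genes of the cytosol, which encode the proteins of the ribosome that translates nuclear messenger RNA, were taken by name from a table of 24187 rows. A row was a member if its symbol was Rps or Rpl followed by a number and at most a short suffix, or was Rpsa, Rplp0, Rplp1 or Rplp2. Rows named as pseudogenes and the Rps6k kinases were left out, and the average over the 7 RNA libraries had to reach 1 FPKM. FPKM is reads per length of gene, scaled to the library, so comparing levels of different genes on it rests on the gene lengths used. Of 84 rows with such a name, 81 reached that mean: 33 of the small subunit, 45 of the large subunit and 3 of the stalk. The 3 names below it were Rpl26, listed at 0 in all libraries but Mut replicate 2, where it had 1 read, Rpl10l with a mean of 0.482 FPKM and Rpl3l with 0.626 FPKM. The 3 members just above it were Rps27 with a mean of 2.45 FPKM, Rpl30 with 3.23 FPKM and Rpl34 with 3.32 FPKM.

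The RNA came from whole mammary gland of C57BL/6 mice on day 13 of pregnancy, when the milk-producing alveoli are growing. In one group, WT, were 4 libraries of wild-type mice bought from a breeder. The other group, Mut, held 3 libraries of Socs2-Δs mice, whose line was created by editing the genome with CRISPR/Cas9, with the strain again given as C57BL/6. The labels do not describe the allele or the number of founders. Socs2 encodes a feedback inhibitor of cytokine signalling through JAK kinases and STAT5. The source of the mice and the genotype ran together and cannot be told apart. Nothing in the labels ties a replicate to an animal, so p-values here measure the spread between libraries, which may be technical. The genotype tag of the 3 Mut samples reads wild type, against their titles and source names, which were followed. Socs2 itself was listed at 22.2 ± 4.28 FPKM (SD, n = 4) in WT and 15.7 ± 1.60 FPKM (SD, n = 3) in Mut. Its log2 difference of -0.46 (SE 0.19) did not pass the test by limma (adjusted p = 0.267), and an exact two-sided permutation test gave p = 0.0857, where the smallest p the 35 splits allow is 0.0286.

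A ribosome holds nearly all of its proteins in equal copy, and the acidic stalk proteins in more, so a cell makes them in matched amounts. Their messenger RNAs are short, abundant and long-lived, and most begin with a cytosine followed by a run of pyrimidines, the 5′ terminal oligopyrimidine tract, through which mTOR signalling and LARP1 govern translation. In the pregnant mammary gland, growth of the alveolar epithelium and the later synthesis of milk protein place a load on ribosomes.

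The libraries were alike in depth, with 21.3 to 24.5 M (mega) reads recovered from the steps between low values, but not in make-up. WT replicates 3 and 4 carried transcripts of other tissues. Summed liver transcripts reached 259.8 and 2319 FPKM there, against 9.09 to 19.4 FPKM in the other 5 libraries, and all 11 of those genes fell in Mut against these 2 WT libraries by limma. Summed salivary gland transcripts were 384 and 231 FPKM against 30.8 to 85.0 FPKM. Lymphocyte transcripts were high in WT replicate 4 and Mut replicate 2, where 9 B lymphocyte genes summed to 254 and 195 FPKM, against 2.90 to 5.12 FPKM in the others. Milk protein and alveolar transcripts summed to 81081 to 107917 FPKM in Mut and 4105 to 46101 FPKM in WT, so markers of the gland were present in all 7 libraries. Adipocyte transcripts summed to 3464 to 6670 FPKM in Mut and 10545 to 22960 FPKM in WT. Fibroblast transcripts summed to 1525 to 2142 FPKM in Mut and 2492 to 3269 FPKM in WT, and 8 of 9 were lower in Mut than in WT replicates 3 and 4, of which 5 fell. Macrophage transcripts were higher in the same 2 WT libraries as those of liver, at 895 and 1000.3 FPKM. They were at 346 to 530.4 FPKM in the other 5 libraries, and 6 of 7 genes fell. Against these 2 WT libraries 15.7% of all genes fell, beside 100% of the liver, 55.6% of the fibroblast and 85.7% of the macrophage genes. The 1 erythroid gene tested was at 200.3 FPKM in WT replicate 3 and 8.98 to 35.6 FPKM in the others. The part of these transcripts in the results below was not tested, and in whole tissue fewer cells of a type and less RNA per cell cannot be told apart. WT replicates 1 and 2 and WT replicates 3 and 4 were compared with Mut apart.

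The ribosomal protein genes moved as a block, and the libraries of WT replicates 3 and 4 stood above the rest. The median over the 81 genes was 807, 966, 2140.4 and 1611 FPKM in WT replicates 1 to 4 and 858, 992 and 1343 FPKM in Mut replicates 1 to 3. WT replicate 3 was the highest of the 7 libraries for 76 genes and WT replicate 1 the lowest for 71. Both WT replicates 3 and 4 lay above the other 5 libraries for 68 of 81 genes (84.0%), an order that 25.1% of the 13392 tested genes showed. The Mut libraries were not a level group either. Mut replicate 3 was above the other two Mut libraries for 79 genes, by a median of 0.61 over Mut replicate 1 on the log2(FPKM + 1) scale, a 1.53-fold difference. WT replicate 2 was above WT replicate 1 for 81 of 81 genes, by a median of 0.33. The median difference between Mut replicate 2 and WT replicate 2 was -0.02, with 36 of 81 genes higher in the Mut library. A common level per library accounted for 88.9% of the variance of the 81 genes about their own means, which is a description of these genes and has no test. Summed FPKM of all rows put the libraries in the same order as the medians of the 81 genes. It was 421374, 492933, 771273 and 636044 in WT replicates 1 to 4 and 487096, 550556 and 618412 in Mut replicates 1 to 3. The median of all tested genes was lowest in WT replicates 3 and 4, at 8.63 and 8.91 FPKM, against 9.28 to 9.56 FPKM elsewhere. The part of the unequal totals in the order of libraries was not tested.

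**Figure D1:**
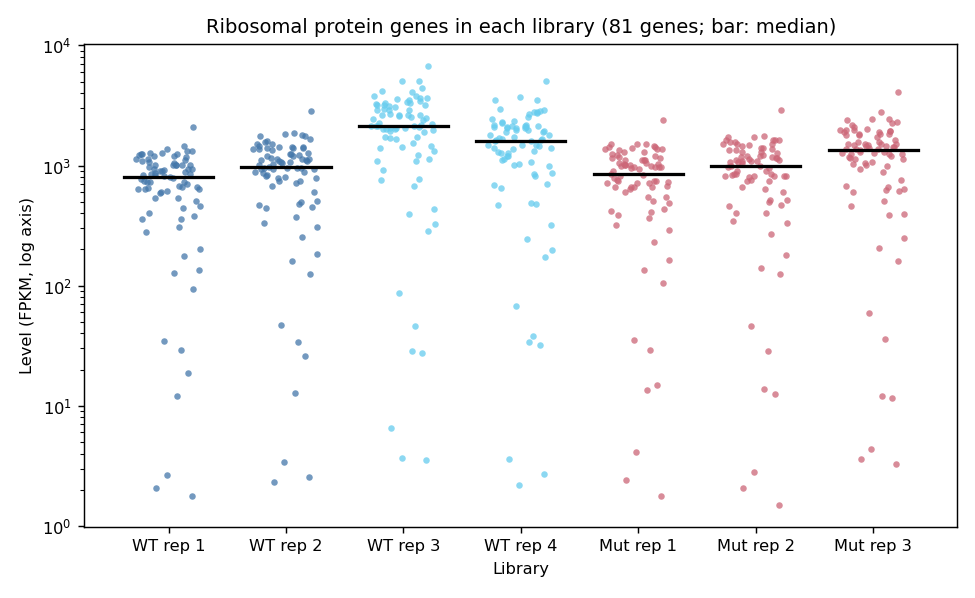
Levels of the 81 ribosomal protein genes in each library, in FPKM on a log axis, 1 point per gene and a bar at the median. The medians of WT replicates 3 and 4, 2140.4 and 1611 FPKM, lie above those of the other 5 libraries, 807 to 1343 FPKM, and the 3 Mut libraries span 858 to 1343 FPKM.

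The share of the library taken by these genes was highest in WT replicates 3 and 4 over all genes and over reads, while without the most abundant rows Mut replicate 3 came above WT replicate 4. The place of Mut against WT replicates 1 and 2 turned with the denominator too. The 81 genes made up 14.6, 15.8, 23.3 and 20.1% of summed FPKM in WT replicates 1 to 4 and 13.8, 14.0 and 16.9% in Mut replicates 1 to 3. As a share of recovered reads they made up 5.47, 6.41, 11.4 and 8.63% and 5.43, 5.94 and 7.41%. With the 50 most abundant rows left out of the genes and of the total, 24 of which were ribosomal protein genes, the shares were 9.62, 10.6, 16.8 and 13.1% and 10.5, 11.0 and 13.2%. The mean of Mut minus that of WT replicates 1 and 2 was thus -0.27 points of summed FPKM, 0.32 points of reads and 1.47 points without the most abundant rows. Against WT replicates 3 and 4 it was -6.84, -3.77 and -3.36 points. No p-value was computed for these shares.

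**Figure D2:**
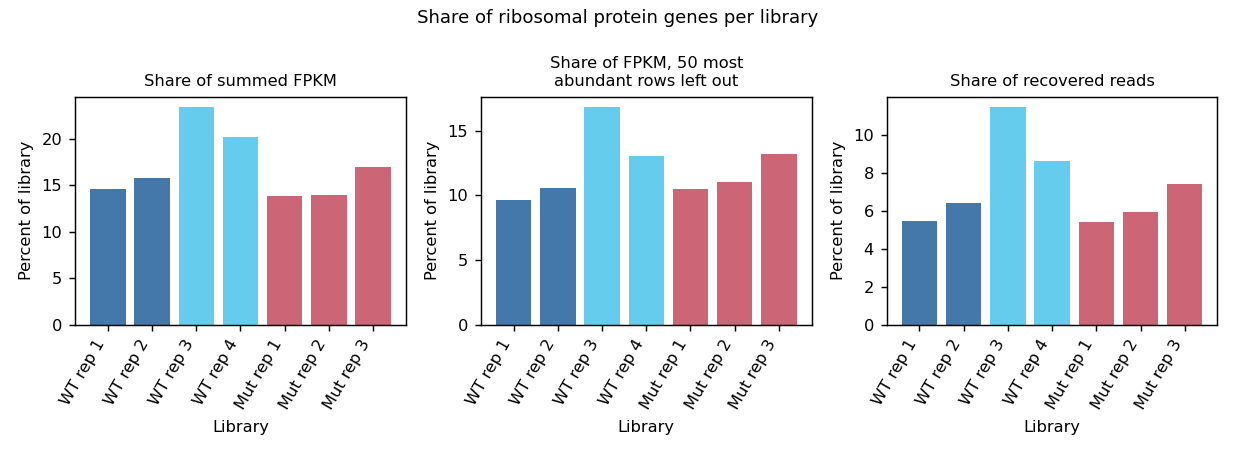
Share of the 81 ribosomal protein genes in each library in percent, as a share of summed FPKM, of summed FPKM without the 50 most abundant rows, and of recovered reads; bars are single libraries. WT replicate 3 is highest in all 3 panels, at 23.3, 16.8 and 11.4%. Mut replicate 3 is the highest of the 5 libraries other than WT replicates 3 and 4 in each panel, and without the most abundant rows its 13.2% is above the 13.1% of WT replicate 4.

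Against all 4 WT libraries, the test passed none of the 81 genes in Mut. The median log2 difference was -0.32 (0.801-fold), with a median SE of 0.42, beside -0.00 for all 13392 genes tested. 78 genes were lower and 3 higher in Mut, though under quantile normalization the median was 0.02 and 42 were higher. Quantile normalization gives every library the same set of values, and 24 of the 50 most abundant rows were ribosomal protein genes. It can therefore take out a shift that these genes share. Whether it did so, here or in the other comparisons, was not tested. By limma with Benjamini-Hochberg adjustment 6 of all genes tested rose (0.0448%) and 0 fell. At an unadjusted p under 0.05 there was 1 ribosomal protein gene, Rps4l. The groups did not overlap for 1 gene, again Rps4l, lower in Mut. Of all genes, 10.0% were lower and 12.5% higher in Mut without overlap. The median depended on single libraries, being -0.06 without WT replicate 3, -0.56 without WT replicate 1, -0.20 without Mut replicate 1 and -0.49 without Mut replicate 3.

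Against WT replicates 1 and 2 alone, most ribosomal protein genes lay slightly higher in Mut as deposited, though not under every scaling, and none passed the test. The median log2 difference was 0.23 (1.17-fold), with a median SE of 0.28, beside 0.03 for all genes. 76 of 81 genes were higher, but 26 when each library was scaled to the same summed FPKM, which made the median -0.03. That scaling also moved the median of all genes to -0.22, so that the ribosomal protein genes stood above all genes by 0.20 as deposited and by 0.18 after it. Under quantile normalization their median was 0.11, only 0.08 above all genes, and this excess was 0.06 without WT replicate 1 and 0.04 without Mut replicate 3. With the same summed FPKM the medians of the small subunit, large subunit and stalk were -0.04, -0.02 and 0.05. By limma 0 ribosomal protein genes passed, while of all genes 169 rose (1.26%) and 91 fell (0.680%), or 101 and 245 under that scaling. At an unadjusted p under 0.05 there was 1 ribosomal protein gene, Rps4l. The Mut libraries were above both WT libraries, without overlap, for 6 genes (7.41% of 81), beside 21.8% of all genes, and below both for Rps4l, beside 18.1%. Without WT replicate 1 the median was 0.07 and without Mut replicate 3 it was 0.06. Without WT replicate 2 it was 0.40 and without Mut replicate 1 it was 0.37.

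Against WT replicates 3 and 4, the ribosomal protein genes were lower in Mut nearly throughout. The median log2 difference was -0.90 (0.537-fold), with a median SE of 0.34, beside -0.03 for all genes. 79 genes were lower and 2, Rpl29 and Rpl34, higher, but 30 were higher under quantile normalization, where the median was -0.12. Under that scaling the median of the 74 members of at least 100 FPKM went from -0.90 to -0.06. That of the 7 members under 100 FPKM went from -0.70 to -0.55. The groups did not overlap for 68 genes, all lower in Mut (84.0%), beside 30.5% of all genes. In the other direction there were 0 of them, beside 31.1% of all genes. By limma 7 fell (8.64%), namely Rpl13a, Rpl39, Rpl39l, Rps14, Rps24, Rps27l and Rps4l, and none rose, while 15.7% of all genes fell and 17.6% rose (2099 and 2355 genes, or 830 and 3193 with the same summed FPKM in each library). Under quantile normalization 3 of the 7, Rpl39l, Rps14 and Rps4l, still fell, and Rpl28 and Rpl29 rose. As deposited, 45 of the 81 had an unadjusted p under 0.05 by limma. The share of all genes at that p was not computed, and 4454 of 13392 passed even after adjustment. Whether the share that fell lay below or above that of all genes depended on the setting. It was below as deposited. It was above with no trend of variance on level (54.3% beside 15.8%), in the fit of 3 groups (39.5% beside 19.5%), at a minimum of 10 FPKM (32.1% beside 23.8%) and with the same summed FPKM (21.0% beside 6.20%). It was slightly above with median-of-ratios scaling (16.0% beside 15.02%) and without Mut replicate 3 (11.1% beside 10.4%). The count rested on single libraries and on the fit: it was 2 without WT replicate 3, 2 without Mut replicate 1, 2 without Mut replicate 2, 12 without WT replicate 4, and 44 when limma was run with no trend of variance on level. The same 2 WT libraries carried the liver and salivary gland transcripts given above. The median was -0.63 without WT replicate 3 and -1.13 without WT replicate 4. The 3 comparisons share the Mut libraries.

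**Figure D3:**
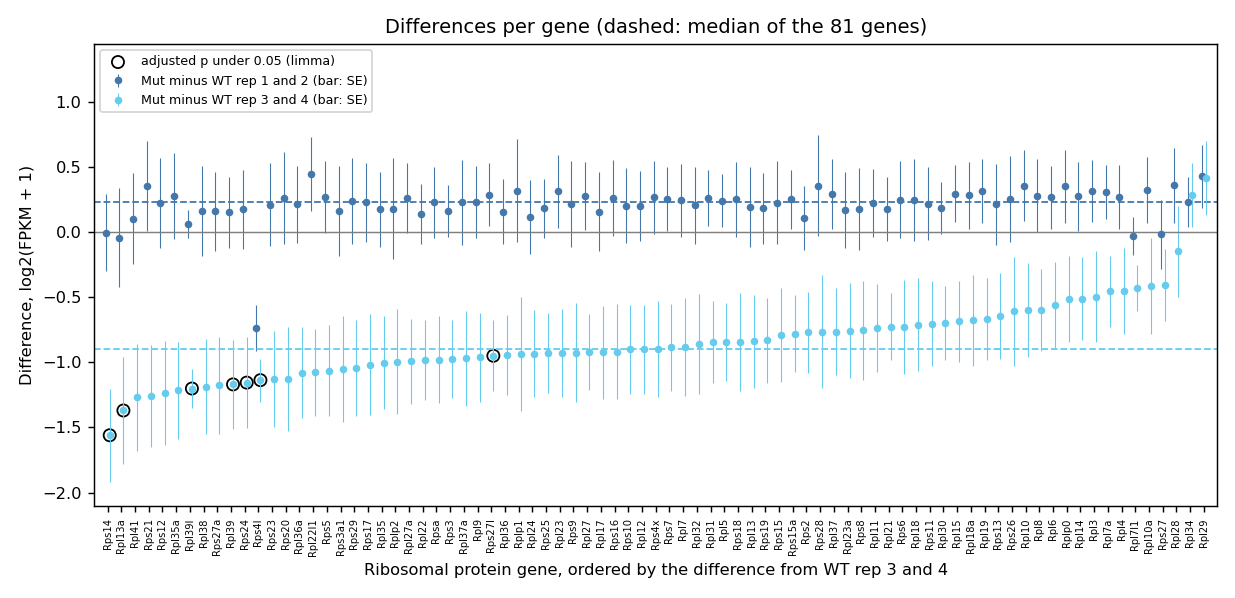
Log2 difference on the log2(FPKM + 1) scale, with its SE, for each of the 81 ribosomal protein genes, Mut minus WT replicates 1 and 2 and Mut minus WT replicates 3 and 4. Genes are ordered by the second, dashed lines mark the medians of 0.23 and -0.90, and circles mark the 7 genes that passed in the second comparison; both comparisons use the same Mut libraries. With the same summed FPKM in each library the medians are -0.03 and -0.55.

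The start of the transcript was examined because these genes moved together. RefSeq promoters of the build GRCm38.p6 were found for 60 of the 81 genes. A tract was counted where a C followed by at least 4 letters that were C or T lay within 5 bases before to 5 after the annotated start, on the strand of the gene. This held for 21 of 60 genes (35%) and for 3464 of 27025 genes in the table (12.8%). Annotated starts can be off by some bases, so no match says only that these letters are not in this window. The 21 genes with a tract and the 39 without one had alike median differences, 0.26 and 0.23 from WT replicates 1 and 2 and -0.84 and -0.90 from WT replicates 3 and 4. The windows below run from 15 bases before to 15 after the start, and capitals mark the tract within the searched bases. Rplp2 and Rps9 are shown as abundant members with a tract, Rps24 and Rpl39 as genes that fell against WT replicates 3 and 4, Rps6 as the substrate of the S6 kinases, and Rpl28 as a member with a small difference from those libraries.
Rplp2: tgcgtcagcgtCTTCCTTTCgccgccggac
Rps9: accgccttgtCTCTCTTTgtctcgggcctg
Rps24: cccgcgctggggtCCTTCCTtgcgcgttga
Rpl39: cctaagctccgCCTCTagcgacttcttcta
Rps6: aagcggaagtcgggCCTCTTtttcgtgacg
Rpl28: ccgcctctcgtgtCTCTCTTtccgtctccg
Rps12, Rpl41 and Rpl13a had no match, though they moved with the block.
Rps12: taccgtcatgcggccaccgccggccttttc
Rpl41: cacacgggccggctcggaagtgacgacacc
Rpl13a: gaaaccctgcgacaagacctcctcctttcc
These windows lie at chr7:141447636-141447665 on the plus strand, chr7:3704026-3704055 on the plus strand, chr14:24490663-24490692 on the plus strand, chrX:37085208-37085237 on the minus strand, chr4:86857353-86857382 on the minus strand and chr7:4792950-4792979 on the plus strand for the genes with a tract. Those without one lie at chr10:23787195-23787224 on the minus strand, chr10:128549154-128549183 on the minus strand and chr7:45128731-45128760 on the minus strand.

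Among the proteins of the small subunit, 33 of 33 genes were lower in Mut than in WT replicates 3 and 4. Of them 4 passed as deposited (12.1%), a smaller share than the 15.7% of all genes that fell, an order that depended on the scaling. With the same summed FPKM 9 of 33 fell, beside 6.20% of all genes. It was 6 of 33 beside 15.02% with median-of-ratios scaling and 2 of 33 beside 13.9% under quantile normalization. The median differences of the 33 genes were -0.35 from all WT, 0.23 from WT replicates 1 and 2 and -0.92 from WT replicates 3 and 4. Rps12, the most abundant of them, was at 1371, 1833, 5089.9 and 3751 FPKM in WT replicates 1 to 4 and 1510.4, 1721 and 2459 FPKM in Mut replicates 1 to 3. Both WT replicates 3 and 4 were above every other library, and the Mut libraries overlapped WT replicates 1 and 2. Its differences from those WT pairs were 0.23 and -1.23 (SE 0.40, adjusted p = 0.0584). Rps28 was at 1241, 1850.4, 4084 and 2667 FPKM in WT replicates 1 to 4 and 1509.7, 1754 and 2780.4 FPKM in Mut replicates 1 to 3. For this gene Mut replicate 3 came above WT replicate 4, so the groups overlapped, and its difference from them was -0.76 (SE 0.43, adjusted p = 0.215), or 0.17 under quantile normalization. Rps3a1 was at 1316, 1777, 4451 and 2835 FPKM in WT replicates 1 to 4 and 1370.1, 1620.2 and 2275 FPKM in Mut replicates 1 to 3. Rps9 was at 1316, 1671, 3677 and 2923 FPKM in WT replicates 1 to 4 and 1381, 1628 and 2289 FPKM in Mut replicates 1 to 3. Both had WT replicates 3 and 4 on top like Rps12, and neither passed in any comparison.

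Rps14 showed the largest fall of all members against WT replicates 3 and 4. This protein sits in the platform of the small subunit, and its human gene lies in the stretch of chromosome lost in a form of myelodysplastic anaemia. It was at 1004, 1223, 3795 and 2814 FPKM in WT replicates 1 to 4 and 985, 950.2 and 1453 FPKM in Mut replicates 1 to 3. WT replicates 3 and 4 were far above every other library, and the Mut libraries lay around WT replicates 1 and 2. The log2 difference was -1.56 (SE 0.36, adjusted p = 0.0229) from WT replicates 3 and 4 and -0.00 (SE 0.29, adjusted p = 0.999) from WT replicates 1 and 2. Rps24, whose human gene is mutated in some families with Diamond-Blackfan anaemia, was at 792, 1073, 2658 and 2034 FPKM in WT replicates 1 to 4 and 842, 992 and 1362 FPKM in Mut replicates 1 to 3. It differed by -1.15 (SE 0.35, adjusted p = 0.0485) from WT replicates 3 and 4 and by 0.18 from the other pair. Neither call held in every repeat with a library left out: Rps14 lost it without WT replicate 3, Mut replicate 1 or Mut replicate 2, and Rps24 in all 5 repeats. Rpsa, a small-subunit protein also known as the laminin receptor, was at 739, 931, 2262 and 1628 FPKM in WT replicates 1 to 4 and 785, 992 and 1185 FPKM in Mut replicates 1 to 3. Rps27a, made as a fusion with ubiquitin, was at 726, 953, 2617 and 1699 FPKM in WT replicates 1 to 4 and 759, 852 and 1254 FPKM in Mut replicates 1 to 3. These 2 genes were again highest in WT replicates 3 and 4, with differences from them of -0.98 (SE 0.33, adjusted p = 0.0679) and -1.18 (SE 0.37, adjusted p = 0.0557).

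The large subunit behaved alike, with 43 of 45 genes lower in Mut than in WT replicates 3 and 4. Of them 3 passed as deposited (6.67%), again a smaller share than the 15.7% of all genes that fell, and again not under every scaling. With the same summed FPKM 8 of 45 fell, beside 6.20% of all genes, and 1 rose. It was 7 of 45 beside 15.02% with median-of-ratios scaling and 1 of 45 beside 13.9% under quantile normalization. The medians of the 45 genes were -0.30, 0.25 and -0.84 in the 3 comparisons. Rpl41, the shortest ribosomal protein, was at 1463, 1802, 5055 and 3514 FPKM in WT replicates 1 to 4 and 1459, 1509.5 and 2429.8 FPKM in Mut replicates 1 to 3. The Mut libraries overlapped WT replicates 1 and 2, and WT replicates 3 and 4 were above them all. Rpl13a, which also serves in a complex that silences inflammatory transcripts, was at 811, 1039.7, 2618 and 2036 FPKM in WT replicates 1 to 4 and 668, 761 and 1402 FPKM in Mut replicates 1 to 3. Mut replicates 1 and 2 were below WT replicate 1 and Mut replicate 3 was above WT replicate 2, so a difference of -0.04 from that pair covered opposite sides. From WT replicates 3 and 4 the difference was -1.37 (SE 0.41, adjusted p = 0.0492). Rpl39, which lines the tunnel through which the new protein chain leaves, was at 966, 1195, 3166 and 2284 FPKM in WT replicates 1 to 4 and 1047, 1110.2 and 1471 FPKM in Mut replicates 1 to 3. Its difference from WT replicates 3 and 4 was -1.17 (SE 0.34, adjusted p = 0.0450). Of the 5 repeats with a library left out, Rpl13a passed in 1, that without Mut replicate 3, and Rpl39 in none.

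The 6 genes with all Mut libraries above both WT replicates 1 and 2 were Rpl3, Rpl5, Rpl10, Rpl10a and Rpl28 of the large subunit and Rplp0 of the stalk. They are named because the count was small, after their values were seen. Rpl10, which joins the large subunit late in its assembly, was at 1248, 1451, 3276 and 2089 FPKM in WT replicates 1 to 4 and 1519, 1726 and 1971 FPKM in Mut replicates 1 to 3. Its lowest Mut library exceeded WT replicate 2 by less than the Mut libraries differed from each other, and the log2 difference was 0.36 (SE 0.27, adjusted p = 0.523). Rpl3, next to the site of peptide bond formation, was at 841, 936, 2039 and 1195 FPKM in WT replicates 1 to 4 and 1008, 1043 and 1289.7 FPKM in Mut replicates 1 to 3, with a difference of 0.32 (SE 0.24, adjusted p = 0.515). Rpl5, which binds the 5S ribosomal RNA, was at 446, 495, 1225 and 815 FPKM in WT replicates 1 to 4 and 503, 521 and 659 FPKM in Mut replicates 1 to 3. The margin over WT replicate 2 was again small. With the same summed FPKM in each library the difference of Rpl5 turned to -0.02, and those of the other 5 stayed above 0, at 0.05 to 0.09. Against WT replicates 3 and 4 their differences were -0.60 for Rpl10, -0.41 for Rpl10a, -0.50 for Rpl3, -0.14 for Rpl28 and -0.84 for Rpl5. Under quantile normalization the first 4 were 0.30, 0.35, 0.26 and 0.63.

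The stalk, formed by Rplp0 and the acidic proteins Rplp1 and Rplp2, brings elongation factors to the ribosome. Rplp1 had the highest mean of all members, 3737 FPKM, and was at 2112, 2830.4, 6746 and 5062 FPKM in WT replicates 1 to 4 and 2391, 2919.8 and 4098 FPKM in Mut replicates 1 to 3. Rplp2 was at 1235, 1753, 3166 and 3497 FPKM in WT replicates 1 to 4 and 1237, 1572 and 2403 FPKM in Mut replicates 1 to 3, and it was 1 of 3 members highest in WT replicate 4. Rplp0 was at 1182, 1411, 2609.6 and 2119.7 FPKM in WT replicates 1 to 4 and 1415, 1642 and 1936 FPKM in Mut replicates 1 to 3. In all 3 genes WT replicates 3 and 4 were above every Mut library. The differences from WT replicates 3 and 4 were -0.93, -0.99 and -0.51 for Rplp1, Rplp2 and Rplp0, and none passed. The difference of Rplp0 there was 0.33 under quantile normalization, and those of Rplp1 and Rplp2 stayed negative in the alternatives run.

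Several paralogs and low members left the common pattern. Rps4l, a paralog of Rps4x that RefSeq lists as a transcribed pseudogene, was at 18.8, 26.1, 27.4 and 31.8 FPKM in WT replicates 1 to 4 and 14.8, 12.5 and 11.6 FPKM in Mut replicates 1 to 3. Every Mut library was below every WT library, and Mut replicate 3, highest of the Mut libraries for most members, was here the lowest. It was the 1 member without overlap in all 3 comparisons. The log2 difference was -0.94 (SE 0.20, adjusted p = 0.133) from all WT, -0.73 (SE 0.18, adjusted p = 0.09997) from WT replicates 1 and 2 and -1.14 (SE 0.17, adjusted p = 0.00678) from WT replicates 3 and 4. The last passed in 13 of 14 alternatives, and the sign was the same in all that were run in each comparison. Its counts were 450 to 611 reads in WT and 235 to 326 in Mut. Rps4x, with which such a copy can share reads, was at 1235, 1499, 3821 and 2444 FPKM in WT replicates 1 to 4 and 1413, 1639.5 and 1908 FPKM in Mut replicates 1 to 3, without this order.

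Rpl39l, a paralog of Rpl39 best known from testis, was at 12.04, 12.9, 28.8 and 34.2 FPKM in WT replicates 1 to 4 and 13.5, 13.8 and 12.1 FPKM in Mut replicates 1 to 3. The 5 libraries other than WT replicates 3 and 4 lay close together, and the difference from that pair was -1.20 (SE 0.15, adjusted p = 0.00487). It passed in 14 of 14 alternatives. Against WT replicates 1 and 2 it was 0.07 (SE 0.11, adjusted p = 0.781). Rpl22l1 is a paralog that Rpl22 is known to hold down. It was at 175, 254, 772 and 481 FPKM in WT replicates 1 to 4 and 230.5, 267 and 389.8 FPKM in Mut replicates 1 to 3. Rpl22 was at 127, 159, 394 and 246 FPKM in WT replicates 1 to 4 and 135, 140.3 and 206 FPKM in Mut replicates 1 to 3. The paralog was the more abundant per length in every library, by 1.38 and 1.60 times in WT replicates 1 and 2, 1.96 and 1.96 times in WT replicates 3 and 4, and 1.71, 1.90 and 1.89 times in Mut. The Mut ratios were thus above those of WT replicates 1 and 2 and below those of WT replicates 3 and 4. In recovered reads Rpl22 was the higher in every library, with 7871 to 20977 reads against 2130 to 7839 for Rpl22l1. The lengths behind the FPKM were 3.52 times the median member for Rpl22 and 0.672 times for Rpl22l1. Which of the 2 genes was the more abundant thus rests on these lengths.

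Rps27l, a paralog of Rps27 that p53 induces, was at 135, 185, 437 and 322 FPKM in WT replicates 1 to 4 and 163, 179.6 and 249 FPKM in Mut replicates 1 to 3. It differed by -0.95 (SE 0.27, adjusted p = 0.0426) from WT replicates 3 and 4, and passed in 9 of 14 alternatives. The call was lost without WT replicate 3, Mut replicate 1 or Mut replicate 2, with no filter, and under quantile normalization, where the difference was -0.32. Rps27 itself was listed at only 1.497 to 3.51 FPKM, on 20 to 43 reads per library, and a related row, Rps27rt, was at 0 in every library. Rpl7l1, which belongs to the Rpl7 family, was at 29.0, 34.0044, 45.9 and 38.2 FPKM in WT replicates 1 to 4 and 29.0, 28.3 and 35.7 FPKM in Mut replicates 1 to 3, 1.43 to 2.88% of the level of Rpl7. It was among the members with the smallest differences, -0.03 and -0.43 from the 2 WT pairs. Rpl3l, known from striated muscle, was at 2.62 FPKM in WT replicate 3 and at most 0.405 FPKM in the other 6 libraries, and Rpl10l, known from testis, at 0.226 to 0.688 FPKM. Rpl29, a large-subunit protein that also binds heparin, went against the block. It was at 203, 307, 323 and 197 FPKM in WT replicates 1 to 4 and 292, 335 and 395 FPKM in Mut replicates 1 to 3. WT replicate 4 was its lowest library and Mut replicate 3 its highest, and the difference was 0.43, 0.43 and 0.42 in the 3 comparisons. It did not pass as deposited (adjusted p = 0.297 against WT replicates 3 and 4). It passed there under 2 of the 14 alternatives, the same summed FPKM in each library, with 0.77, and quantile normalization, with 1.05. Rpl34, on 31 to 67 reads per library, was the other member higher in Mut than in both WT pairs, by 0.23 and 0.29, and did not pass.

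**Figure D4:**
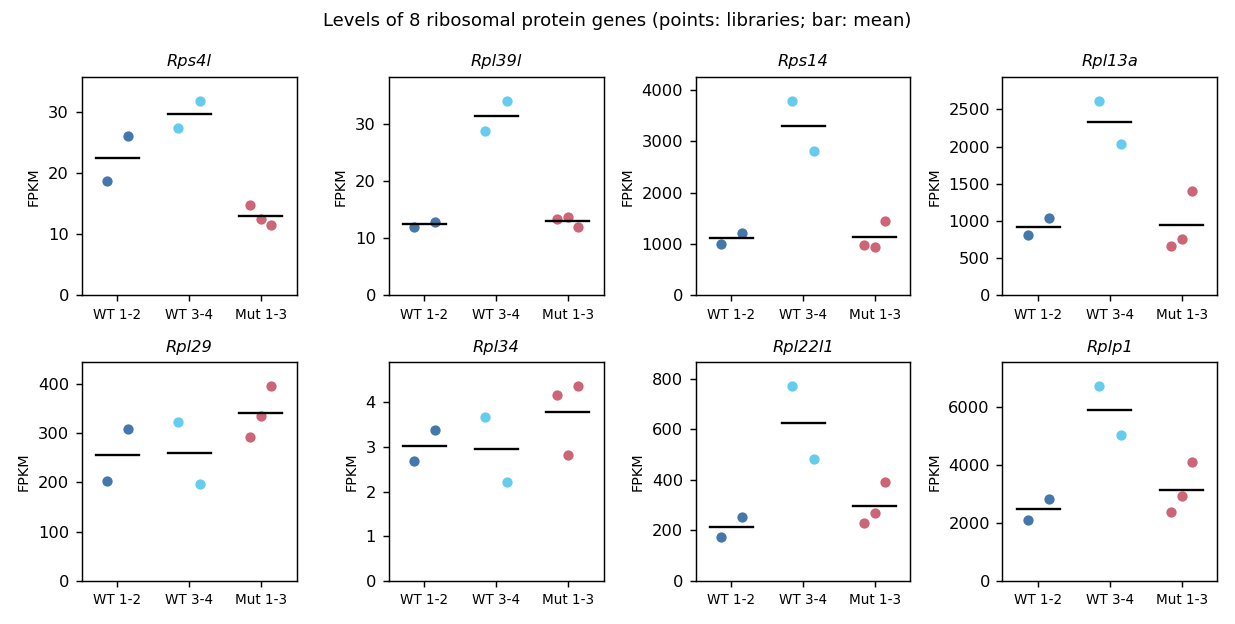
Levels in FPKM of 8 ribosomal protein genes in WT replicates 1 and 2, WT replicates 3 and 4 and Mut replicates 1 to 3; points are libraries and bars are means. Rplp1, Rps14, Rpl13a and Rpl22l1 are high in WT replicates 3 and 4, Rpl39l is at 12.04 to 13.8 FPKM in all other libraries, Rps4l is at 11.6 to 14.8 FPKM in Mut and 18.8 to 31.8 FPKM in WT, and Rpl29 and Rpl34 do not have the common order.

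Many ribosomal protein genes carry small nucleolar RNAs, guides of ribosomal RNA modification, in their introns. In RefSeq 30 of the 81 genes had a record of such an RNA between their start and end. Introns and strand were not checked. The host genes and the 51 others did not part, with medians of 0.22 and 0.24 from WT replicates 1 and 2 and -0.84 and -0.92 from WT replicates 3 and 4. Against WT replicates 3 and 4 the small nucleolar RNAs went the other way from their hosts. The 32 tested ones within ribosomal protein genes summed to 296, 390.2, 74.4 and 45.8 FPKM in WT replicates 1 to 4 and 271, 354 and 481 FPKM in Mut replicates 1 to 3. Their sums were lowest in WT replicates 3 and 4, the libraries in which the host genes were highest. The median difference was 0.06 from WT replicates 1 and 2, or -0.19 with the same summed FPKM in each library, and none passed. It was 2.08 from WT replicates 3 and 4, and 1.97 to 2.496 under the 4 other scalings. There 32 of 32 were higher in Mut and 25 rose (78.1%, beside 17.6% of all genes). Of 10 listed host genes without a ribosomal protein, 5 rose, with a median of 1.04. The rise was not particular to RNAs within ribosomal protein genes. Of the 72 tested rows named as small nucleolar RNAs, 57 rose (79.2%), with a median of 2.13. Such short RNAs lack a poly(A) tail, and where the reads on them came from was not tested.

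Some ribosomal proteins have names outside the rule and are no members. Fau encodes a ribosomal protein fused to a ubiquitin-like protein. It was at 586, 778, 1555 and 1451 FPKM in WT replicates 1 to 4 and 569.9, 725 and 1028 FPKM in Mut replicates 1 to 3. Gnb2l1 is the older symbol of Rack1, a scaffold on the small subunit. It was at 774, 891, 1899 and 1268 FPKM in WT replicates 1 to 4 and 957, 1057 and 1171 FPKM in Mut replicates 1 to 3. By limma neither passed in any of the 3 comparisons. Rows for copies of ribosomal protein genes held reads as well: the 5 tested rows named as pseudogenes had medians of 0.25 and -0.81. Rpl31-ps12 was at a mean of 1100.0 FPKM, above the 597 FPKM of Rpl31, and Rpl14-ps1 at 1091 FPKM, above the 923 FPKM of Rpl14. How reads that map to several copies were treated is not given in the sources used here, so the levels of such genes are uncertain.

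Other genes of the translation machinery were examined beside the ribosomal protein genes, with no test between the groups. Of 11 elongation factors, 10 were lower in Mut than in WT replicates 3 and 4, with a median of -0.53, and the median from WT replicates 1 and 2 was 0.27. Eef1a1, which delivers aminoacyl-tRNA, was at 3865, 4038, 8271 and 6245 FPKM in WT replicates 1 to 4 and 4588, 4758 and 5042 FPKM in Mut replicates 1 to 3. Eef2, which moves the ribosome along, was at 783, 770.2, 1263 and 1130.1 FPKM in WT replicates 1 to 4 and 1102, 1077 and 1162 FPKM in Mut replicates 1 to 3, in Mut near the level of WT replicates 3 and 4. By limma 1 of the 11 rose, Eef2k, the kinase that inhibits Eef2, by 0.94 (SE 0.17, adjusted p = 0.0111), and 1 fell, Eif5a2, with -0.58 (SE 0.17, adjusted p = 0.0472). Of 36 initiation factors 2 rose, Eif4a2 and Eif4g3, and 4 fell, Eif1ax, Eif1b, Eif2s3x and Eif4e. The median of the 36 was -0.15, and 0.03 to 0.19 under 3 of the 4 other scalings. The shares that rose and fell were 9.09% and 9.09% of elongation factors and 5.56% and 11.1% of initiation factors. Of all genes, 17.6% rose and 15.7% fell.

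Of 37 genes of ribosome assembly and the nucleolus, 27 were higher in Mut than in WT replicates 3 and 4, and 27 to 30 under the 4 other scalings. By limma 9 rose (24.3%, beside 17.6% of all genes) and 1, Nop10, fell, with a median of 0.23. Nat10, which acetylates ribosomal RNA, was at 12.4, 12.5, 4.98 and 5.51 FPKM in WT replicates 1 to 4 and 14.6, 12.9 and 10.6 FPKM in Mut replicates 1 to 3. All Mut libraries were above WT replicates 3 and 4. It differed by 1.13 (SE 0.17, adjusted p = 0.00772) from these and by 0.02 from WT replicates 1 and 2. Of 19 genes of the mTOR, LARP1 and MYC axis 7 rose (36.8%, beside the same 17.6%) and 2, Eif4ebp1 and Rheb, fell. Myc, a driver of ribosomal gene transcription, was at 60.6, 63.9, 29.1 and 20.9 FPKM in WT replicates 1 to 4 and 63.4, 65.6 and 74.3 FPKM in Mut replicates 1 to 3. Its level was lowest in WT replicates 3 and 4, the libraries with most ribosomal protein transcript, and the difference from them was 1.42 (SE 0.19, adjusted p = 0.00573). Larp1, which binds the 5′ tract, was at 24.9, 24.7, 15.9 and 19.8 FPKM in WT replicates 1 to 4 and 31.6, 28.8 and 28.5 FPKM in Mut replicates 1 to 3, with 0.71 (SE 0.16, adjusted p = 0.0208). In Rps6kb2, an S6 kinase, WT replicates 3 and 4 were both near 4.50 FPKM and the other 5 libraries at 18.2 to 20.1 FPKM. None of the genes of these 4 lists passed against WT replicates 1 and 2.

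The ribosomal protein genes were not alone in standing high in WT replicates 3 and 4. The 639 other genes that averaged 100 FPKM or more had medians of 0.04 and -0.66 from the 2 WT pairs. In the second, 34.9% of them fell and 4.69% rose. That compares with 15.7% and 17.6% of all genes, and with 8.64% and 0% of the ribosomal protein genes as deposited. Complex I subunits of the respiratory chain, 35 genes, had 0.11 and -0.99, with 24 that fell in the second (68.6%). The proteins of the mitochondrial ribosome, 77 genes, had 0.08 and -0.54, with 26 that fell (33.8%) and 1 that rose. Proteasome subunits, 37 genes, had 0.04 and -0.48, with 9 that fell (24.3%) and 1 that rose. The difference of the ribosomal protein genes from WT replicates 3 and 4 thus lay between those of complex I and of the other abundant genes. Whether the sets differ from each other was not tested. With the same summed FPKM in each library, the medians from WT replicates 1 and 2 were -0.23 for the other abundant genes, -0.16 for complex I, -0.18 for the mitochondrial ribosome and -0.23 for the proteasome.

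**Figure D5:**
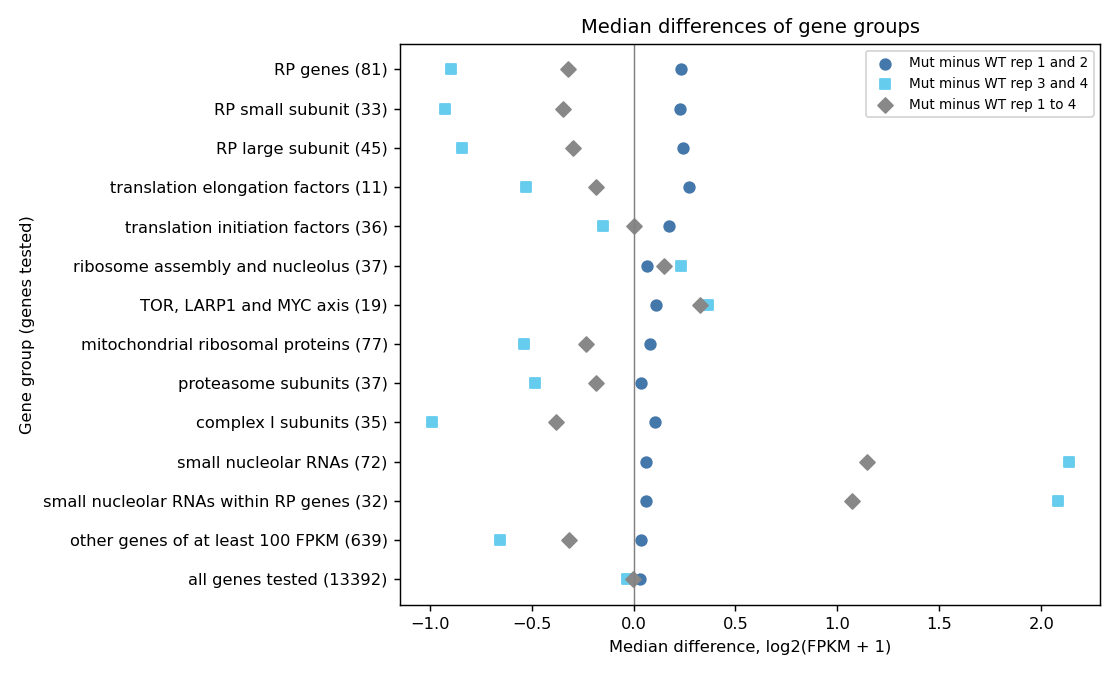
Median difference on the log2(FPKM + 1) scale of gene groups, with the number of genes tested in brackets, in the 3 comparisons, which share the Mut libraries. The ribosomal protein genes (RP) lie at 0.23 from WT replicates 1 and 2 and -0.90 from WT replicates 3 and 4, complex I at -0.99 in the second, and the small nucleolar RNAs at 2.13. With the same summed FPKM in each library the ribosomal protein median of 0.23 becomes -0.03, and those of complex I, mitochondrial ribosomal proteins, proteasome and other abundant genes in that comparison turn negative too.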

How the data were processed

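RNA was sequenced in 7 of the 16 samples of the series; the other 9 (ChIP-seq and DNase-seq) were not analysed here. Per the submitters' processing notes, CASAVA, Bowtie2, STAR and DESeq2 and the mouse build mm9 were used, with no roles or versions; annotation and filters: not given in the sources used here. Libraries were made from poly(A) RNA per the labels' protocols. The authors deposited FPKM in 1 table with symbols and Entrez IDs. Whole reads were recovered from the steps between values for 21044 of 21044 rows above 0 (tolerance 0.02 of a read). On simulated reads the step was exact for 95.3% of rows. Reads times the worth of 1 read varied from 0.851 to 1.171 of its mean, so the values were not scaled to equal totals of these recovered reads. Which total they were scaled to is not given in the sources used here.

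Differences are Mut minus WT, taken as log2(FPKM + 1), a scale on which low genes show less change than they had. They were tested with limma 3.58.1 in R 4.3.3 (mean-variance trend, no covariate, Benjamini-Hochberg at 0.05 over all 13392 rows with a mean of at least 1 FPKM). On simulated data with 200 changed genes it recovered 38%, 58% and 25% of changes of 1 in the comparisons with WT replicates 1 to 4, 1 and 2, and 3 and 4, and 80%, 89% and 74% of changes of 2. Members and lists were chosen with earlier results of these data known, and 1 gene of the lists is not reported here. The genes named are the 6 most abundant, up to 5 rises and falls past the threshold per comparison or the 3 of smallest p, the stalk, Rpsa, Rps27a, Rpl41, listed paralog pairs, the 3 names on each side of the minimum, and up to 4 of smallest p per list. Others were named where a count was small. Names, order and start sequences came from RefSeq (GRCm38.p6). Its positions were joined to values only in splitting members by a small nucleolar RNA within the gene and by a tract. Alternatives were pseudocount, filters, scalings, no trend, a fit of 3 groups, the replicate block and each library left out; scaling to equal reads and the share of reads were chosen after seeing the data.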

Additional observations from a re-analysis of the deposited data

How the results depend on the processing

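Pseudocount 0.1, no filter, a minimum of 10 FPKM, median-of-ratios scaling and no trend kept the sign of the median difference of the ribosomal protein genes in each comparison, and the fit of 3 groups in the 2 with a WT pair, the only ones it was run for. The median against all WT was 0.023 under quantile normalization, which can take out a shift that abundant genes share. Whether it did so was not tested. The median against WT replicates 1 and 2 was -0.035 with the same summed FPKM. Scaled to equal recovered reads it was 0.06, a setting that moved the median of all genes to -0.12. The median against WT replicates 3 and 4 was -0.55 with the same summed FPKM, where the median of all genes was 0.28, and -0.12 under quantile normalization. With a library left out the medians ranged from -0.56 to -0.06, from 0.06 to 0.40 and from -1.13 to -0.63 in the 3 comparisons. The count of 7 passing genes against WT replicates 3 and 4 became 2 with no filter, 25 at a minimum of 10 FPKM, 13 with median-of-ratios scaling, 18 with the same summed FPKM (1 rose), 44 with no trend, 32 in the fit of 3 groups, and 2 to 12 with a library left out. It stayed 0 in the other comparisons. Under quantile normalization 5 passed there, 2 of which, Rpl28 and Rpl29, rose. The share against WT replicates 1 and 2 was 1.47 points without the 50 most abundant rows and 0.32 points in reads, and that against WT replicates 3 and 4 was -3.36 and -3.77 points. The cause was not tested. With the replicate block the medians were -0.22 and 0.06 against all WT and WT replicates 1 and 2, and 0 ribosomal protein genes passed in either; against WT replicates 3 and 4 no paired analysis was possible because the groups share 1 number. Deviations of same-numbered libraries correlated by 0.35, 0.06 and 0.19 for numbers 1 to 3, so the numbers were not taken to pair them. Each Mut library correlated best with its own number when WT replicate 4 was left out. With it, Mut replicate 2 correlated best with WT replicate 4 and by -0.10 with its own number. The values of Rps27, Rpl30 and Rpl34 rested on 20 to 87 reads per library, and why these rows held so few was not tested.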

Other observations

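Among the 74 ribosomal protein genes of at least 100 FPKM, shorter genes differed more from WT replicates 3 and 4. Lengths were taken relative to the median member from the worth of 1 read. The 24 shortest had a median difference of -0.996, the 26 in the middle -0.87 and the 24 longest -0.84, and Spearman's rho between length and difference over the 74 genes was 0.34, a description across genes that share the libraries. From WT replicates 1 and 2 the medians were 0.23, 0.23 and 0.26. For the difference from WT replicates 3 and 4, Pearson's r with log2 length was 0.22. Mean level went with that difference too, with a Spearman's rho of -0.22 and a Pearson's r of -0.27 on log2 level. Length and level were not set apart. Rps15a had the longest model, 7.23 times the median member, and a mean of 152 FPKM, below its copies Rps15a-ps4 with 539 FPKM and Rps15a-ps6 with 524 FPKM.

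After the common level of each library was taken out, Rpl29, Rpl34 and Rps4l kept the largest spread over the 7 libraries, with an SD of 0.61, 0.60 and 0.56 on the log2(FPKM + 1) scale, against 0.17 over all members. Rpl28, Rpl10a, Rpl4 and Rpl3 were low in both WT replicates 3 and 4 relative to the other members, at -0.48 and -0.50, -0.15 and -0.47, -0.25 and -0.35, and -0.12 and -0.38. Rps14, Rps21, Rpl41 and Rps12 were relatively high there, at 0.38 and 0.46, 0.22 and 0.39, 0.25 and 0.23, and 0.21 and 0.28. These genes were singled out after their values were seen.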
